A study of Sus scrofa with 23 samples.

Results

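The genes described here encode the subunits, activators and assembly factors of the proteasome. They were found as the non-control array probes whose gene symbol, or symbol in the probe description, starts with PSMA, PSMB, PSMC, PSMD, PSME, PSMF or PSMG. This gave 19 of the 5242 genes that could be named on the array, read by 56 of its 43603 probes: PSMA4, PSMA5 and PSMA6 of the outer core rings, PSMB3, PSMB4, PSMB6 and PSMB7 of the inner core rings, PSMB8, PSMB9 and PSMB10 of the immunoproteasome, PSMC1, PSMC6, PSMD1 and PSMD4 of the base, PSMD14 of the lid, the activators PSME1, PSME2 and PSME3, and the assembly chaperone PSMD10. No probe carried a PSMF or PSMG symbol. All 56 probes passed the filter on dim probes, which kept 27785 probes in all, and 55 of the 56 were well above background on all 23 arrays. The exception, PSMA5, was so on 22, because its spot on the array of restricted replicate 2 was an outlier and was set to missing.

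Gene expression was measured with single-colour arrays in Longissimus, a long back muscle, of 23 pigs that weighed 115 kg. RFI, or residual feed intake, is the feed an animal eats beyond what its growth and maintenance predict. The low-RFI group (RFIneg, 7 pigs) and the high-RFI group (RFIpl, 8 pigs) ate ad libitum, and the restricted group (RFIplR, 8 pigs) were high-RFI pigs given the amount that low-RFI pigs ate. Each array held the RNA of 1 pig. Between 41.7% and 79.0% of probes per array were well above background, with the lowest shares, 41.7% to 58.8%, on the 4 arrays of slide 3. Muscle fibre genes such as ACTA1 and CKM were well above background on all arrays, 11 of 11 in the list of fibre markers. In whole muscle, fewer cells of a type and less RNA per cell cannot be told apart.

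The proteasome is the barrel-shaped protease that degrades proteins tagged with ubiquitin. Its core stacks outer rings of alpha subunits, which gate entry, on inner rings of beta subunits, of which PSMB5, PSMB6 and PSMB7 cut peptides. The regulatory particle caps the core: the ATPases of its base unfold substrates, and its lid removes ubiquitin. In immune cells, and in other cells under interferon, PSMB8, PSMB9 and PSMB10 replace PSMB5, PSMB6 and PSMB7 in the immunoproteasome, which favours peptides for antigen presentation. PSME1 and PSME2 form a cap that opens the core without ubiquitin or ATP, and PSME3 forms a similar cap in the nucleus. In skeletal muscle the ubiquitin and proteasome system carries much of the breakdown of contractile proteins.

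Levels are log2 signal minus the 75th percentile of the array. A level is not comparable between probes, so only differences of a probe between groups are read. Each difference is a log2 value with limma's standard error (SE). P-values of limma's moderated test were adjusted by Benjamini-Hochberg over all 27785 probes, and an adjusted p under 0.05 is called past the threshold. Each gene is represented by its probe with the highest mean level. No probe of a proteasome gene passed the threshold in any comparison, so the differences below are descriptions with their errors. Between low-RFI and high-RFI pigs 0 of 56 member probes passed (limma), against 0.122% of all probes. The same count was 0 of 56 between restricted and high-RFI pigs, against 0.00360%, and 0 of 56 between low-RFI and restricted pigs, against 0.162%. In the F test over the 3 groups it was 0 of 56, against 0.137% of all probes. At an unadjusted p under 0.05 the F test took 6 of the 19 genes on their brightest probe. Counting probes, it took 18 of 56 member probes, or 32.1%, against 12.5% of all probes. That count was 7 with median centring, 10 with quantile normalization, 8 without the arrays of the dimmest slide and 1 under either normexp fit. With 1 pig left out it ran from 9 to 24, and it was 9 without high-RFI replicate 2, 11 without high-RFI replicate 4 or restricted replicate 2, and 10 without restricted replicate 1 or 5. No member probe had groups that did not overlap in any comparison. Of all 27785 kept probes 98, 22 and 63 had such groups, in the comparisons in the order above. These are too few for 0 of 56 to be a contrast.

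On their brightest probes the genes outside the immunoproteasome had higher means in restricted than in high-RFI pigs. The 3 immunoproteasome genes had lower ones. Of the 16 genes outside the immunoproteasome, 16 were higher on that probe, with a median difference of 0.16. The range ran from 0.03 for PSMD10 to 0.53 for PSMA4. Counting all probes of these genes, 42 of 48 were higher, with PSMA4 higher on 1 of 3 and PSMD1 on 2 of 6. The median over all kept probes was 0.01. At an unadjusted p under 0.05, 6 of the 19 genes were higher on their brightest probe. Counting probes, 19 of 56, from 8 genes, were higher at that level, which is 33.9%, against 4.95% of all probes. Among these 19 probes 6 were of PSMC6, 4 of PSMA6 and 4 of PSMB4, and probes of 1 gene are not independent members. Lower at that level were 2 of 56, both of PSMB10, against 4.81% of all probes. Bright probes leaned the same way: when the kept probes were split by mean level into 4 equal groups, the brightest of these held 45 of the 56 member probes, and 69.9% of its probes were higher in restricted pigs, the median difference was 0.06 and 10.1% were higher at an unadjusted p under 0.05. Of the 45 member probes there, 39 were higher, with a median of 0.16, and 18 were so at that level. This split by brightness was made after the data were seen. With quantile normalization 6 of 56 probes were higher at an unadjusted p under 0.05, the median over the 16 genes was 0.10 and 15 of them were higher. Without the arrays of the dimmest slide 12 probes were higher at that level. Under the background correction with the normexp model the direction turned: 2 of the 16 genes were higher with its usual fit and 3 with a fit on negative control spots, and the brightest group of all probes stood at -0.66 and -0.32. Under the former the median of all kept probes was itself 0.21, and relative to it the median of the 16 genes was -0.87.

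**Figure D1:**
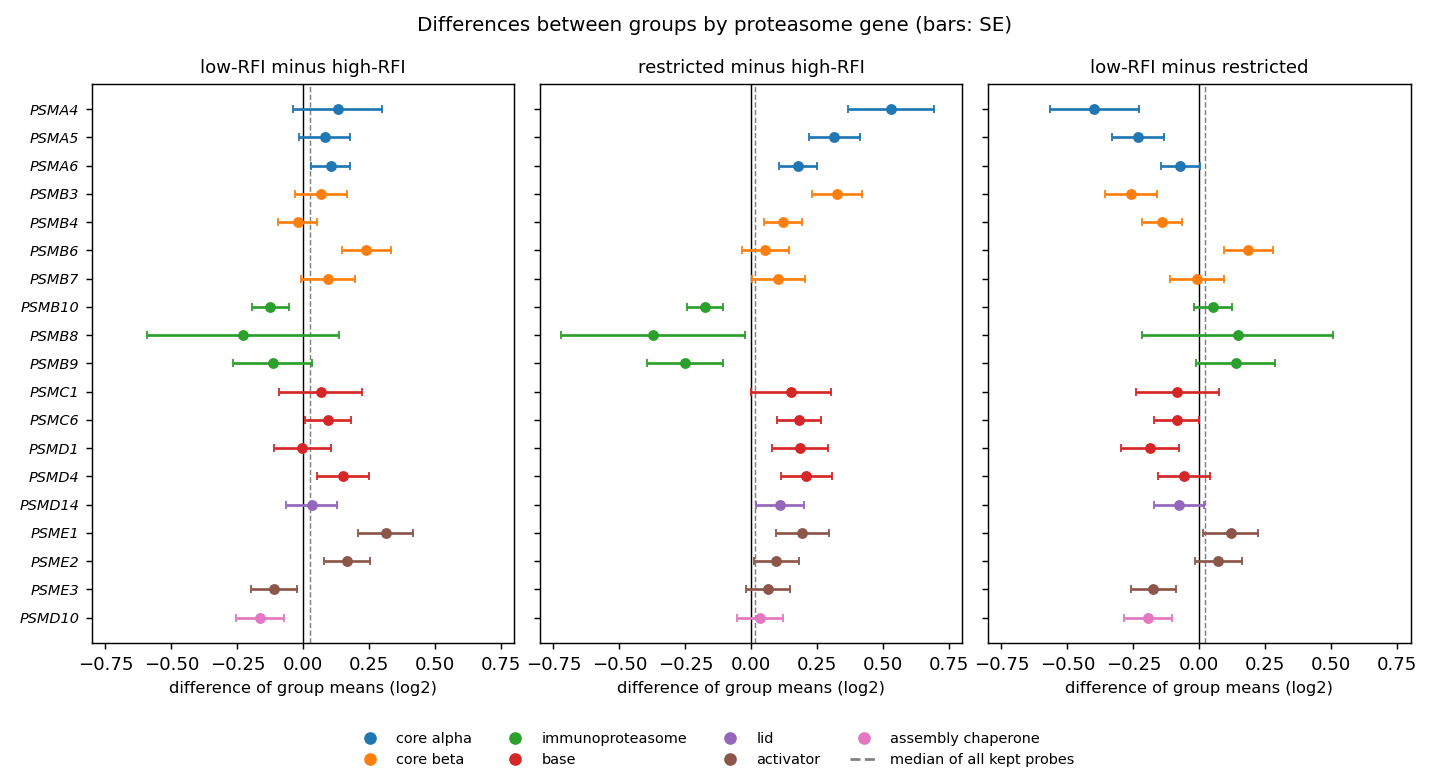
Difference between group means (log2, with SE) of each of the 19 proteasome genes on its brightest probe, in 3 comparisons, coloured by class, with the median of all 27785 kept probes as a dashed line. In the middle panel the 16 genes outside the immunoproteasome lie to the right of 0 and the 3 immunoproteasome genes to its left. No difference passed the threshold.

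The 3 alpha subunits of the outer core ring had a median difference of 0.31 between restricted and high-RFI pigs on their brightest probes, and 6 of their 8 probes were higher. PSMA5 had levels from 4.08 to 4.74 with a median of 4.35 in high-RFI pigs, from 4.5 to 4.88 with a median of 4.67 in the 7 restricted pigs measured, and from 4.27 to 4.60 with a median of 4.48 in low-RFI pigs. Of the restricted pigs 1 lay under the highest low-RFI pig, and the high-RFI pigs spanned the range of the low line. The difference between restricted and high-RFI pigs was 0.31 (SE 0.10, limma adjusted p 0.224), with restricted pigs higher on 5 of 5 slides, and it was 0.32 and 0.31 on the first and the second scan day. The difference between low-RFI and restricted pigs was -0.23 (SE 0.10, limma adjusted p 0.426). PSMA6 was measured by 4 probes that gave nearly the same value, 0.16 to 0.21 between restricted and high-RFI pigs, of which 4 had an unadjusted p under 0.05. On its brightest probe the median level was 5.36 in high-RFI pigs (5.27 to 5.60), 5.57 in restricted pigs (5.40 to 5.72) and 5.44 in low-RFI pigs (5.35 to 5.75). The groups overlapped, and the difference was 0.18 (SE 0.07, limma adjusted p 0.398). Of these 4 probes, those that start at bases 653 and 666 share 32 bases and are not independent of each other.

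PSMA4, another alpha subunit, had the largest difference of any member, but its probes did not move together. The probe that starts at base 1212 of the transcript had a mean of 3.77 ± 0.46 (SD, n = 8) in high-RFI pigs, 4.30 ± 0.25 (SD, n = 8) in restricted pigs and 3.90 ± 0.23 (SD, n = 7) in low-RFI pigs. In high-RFI pigs it ran from 3.03 to 4.31 and in restricted pigs from 4.03 to 4.77, so the lowest high-RFI pigs fell well below any restricted pig while others overlapped them. The difference was 0.53 (SE 0.16, limma adjusted p 0.221) between restricted and high-RFI pigs and -0.40 (SE 0.17, limma adjusted p 0.420) between low-RFI and restricted pigs. The probes that start at bases 679 and 741 gave -0.04 (SE 0.10) and -0.05 (SE 0.09) between restricted and high-RFI pigs. Within an array, the probe at base 1212 stood above the probe at base 679 by 0.89 ± 0.26 in restricted pigs (SD, n = 8), by 0.32 ± 0.42 in high-RFI pigs (SD, n = 8) and by 0.43 ± 0.19 in low-RFI pigs (SD, n = 7). Since the probes disagreed, the mean of the 3 probes put PSMA4 at 0.14 between restricted and high-RFI pigs. The probe annotation lists chromosome positions as unmapped, so each probe is placed by its start in the transcript. The PSMA4 probe at base 679, which lay within its SE of 0, and the single PSMA5 probe at base 734 are shown 5′ to 3′ as the scanner files give them, to identify what was read for each gene:
PSMA4 base 679: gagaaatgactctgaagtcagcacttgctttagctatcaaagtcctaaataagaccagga
PSMA5 base 734: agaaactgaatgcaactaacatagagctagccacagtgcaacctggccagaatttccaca

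**Figure D2:**
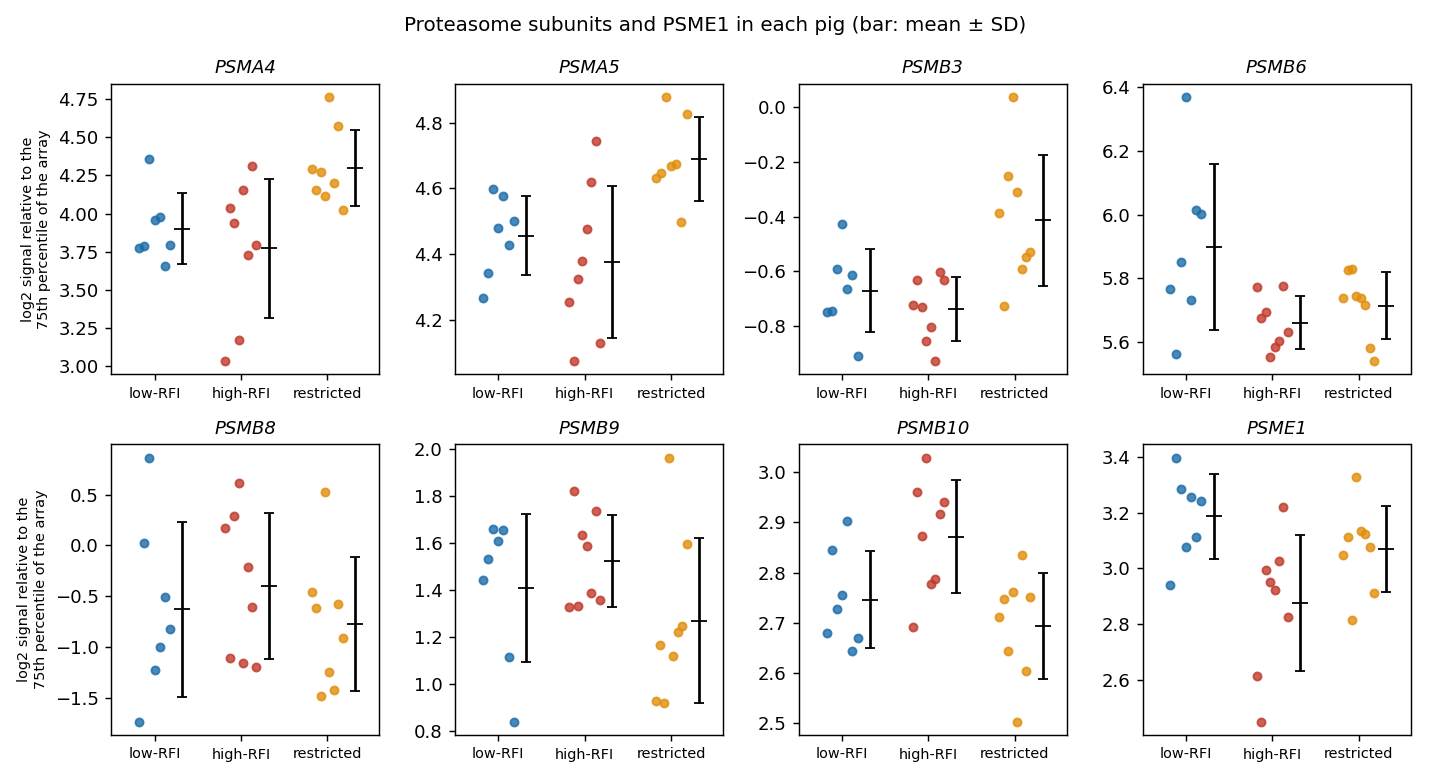
Level of 8 genes in each pig (log2 signal relative to the array's 75th percentile, 1 point a pig, 7 low-RFI, 8 high-RFI and 8 restricted pigs, 7 restricted for PSMA5), with the group mean ± SD as a bar. Restricted pigs lie highest for PSMA4, PSMA5 and PSMB3, low-RFI pigs for PSMB6 and PSME1, and the groups overlap in every panel.

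Among the beta subunits of the inner core ring, PSMB3, a structural subunit without a cutting site, had the smallest p of any member. Its level ran from -0.93 to -0.60 in high-RFI pigs with a median of -0.73, from -0.72 to 0.04 in restricted pigs with a median of -0.46, and from -0.91 to -0.43 in low-RFI pigs with a median of -0.67. Restricted pigs were higher than high-RFI pigs on 6 of 6 slides, and the ranges overlapped. The difference was 0.32 (SE 0.10, limma adjusted p 0.192), and it was 0.34 with slide as a block (limma adjusted p 0.157). Between low-RFI and restricted pigs it was -0.26 (SE 0.10, limma adjusted p 0.366). PSMB3 had 1 probe, near the start of the transcript at base 50. PSMB4, also a structural subunit, had 10 probes, and the 10 were higher in restricted than in high-RFI pigs, by 0.12 to 0.20, and lower in low-RFI than in restricted pigs, by values from -0.21 to -0.14. Between low-RFI and high-RFI pigs they stood from -0.036 to -0.0028. On the brightest probe PSMB4 differed by 0.12 (SE 0.07, limma adjusted p 0.626) between restricted and high-RFI pigs. The 6 probes that start at bases 834 to 855 share runs of 24 to 55 bases with each other, so the 10 are far from independent measurements. PSMB7, the subunit with trypsin-like activity, differed by 0.10 (SE 0.10, limma adjusted p 0.816) between restricted and high-RFI pigs and by 0.09 (SE 0.10, limma adjusted p 0.807) between low-RFI and high-RFI pigs.

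In the regulatory particle, the genes of the base and the 1 lid gene were higher in restricted than in high-RFI pigs on their brightest probes. Over PSMC1, PSMC6, PSMD1 and PSMD4 the median difference between restricted and high-RFI pigs was 0.18, and 13 of their 17 probes were higher. PSMD4, a ubiquitin receptor, had the smallest F test p of the base. Its level ran from 3.99 to 4.65 in high-RFI pigs (median 4.33), from 4.29 to 4.66 in restricted pigs (median 4.59) and from 4.19 to 4.73 in low-RFI pigs (median 4.45). The groups overlapped over most of their range, and the difference between restricted and high-RFI pigs was 0.21 (SE 0.10, limma adjusted p 0.475). PSMC6, an ATPase of the base, was measured by 7 probes, which gave 0.18 to 0.27 between restricted and high-RFI pigs and 0.10 to 0.18 between low-RFI and high-RFI pigs. Of these, 6 had an unadjusted p under 0.05 between restricted and high-RFI pigs, and on its brightest probe the difference was 0.18 (SE 0.08, limma adjusted p 0.479). PSMC1, another ATPase of the base, gave 0.30 (SE 0.11, limma adjusted p 0.304) on the probe at base 745 and 0.15 (SE 0.15, limma adjusted p 0.829) on the brighter probe at base 1505. PSMD1, the largest scaffold subunit of the base, had probes that differed in sign. Between restricted and high-RFI pigs its probes at bases 637, 1275 and 2538 gave -0.01, -0.06 and -0.12, the brightest probe at base 3042 gave 0.19 (SE 0.11, limma adjusted p 0.598), and those at bases 3184 and 3223 gave -0.06 and 0.15. PSMD14, the deubiquitinase of the lid and the lid's only member found by symbol, ran from 3.77 to 4.28 in high-RFI pigs (median 3.92), from 3.79 to 4.41 in restricted pigs (median 4.08) and from 3.81 to 4.22 in low-RFI pigs (median 4.01). The groups overlapped almost fully, with a difference of 0.11 (SE 0.09, limma adjusted p 0.776) between restricted and high-RFI pigs. The probe of PSMC1 with the smaller p is shown, 5′ to 3′:
PSMC1 base 745: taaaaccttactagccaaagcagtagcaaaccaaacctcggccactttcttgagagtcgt

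**Figure D3:**
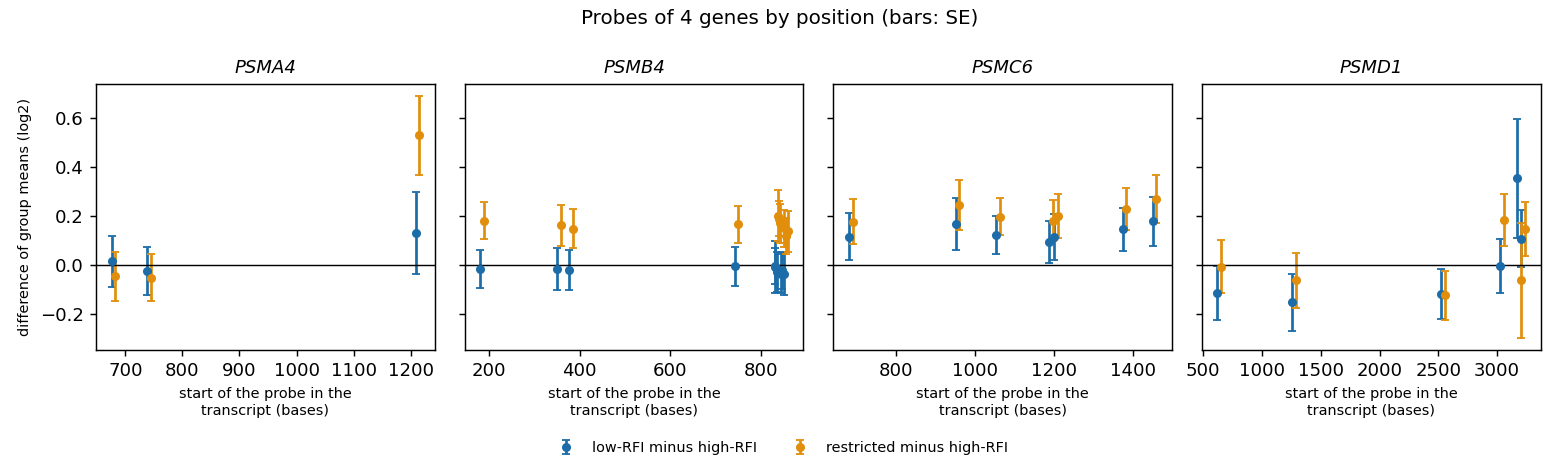
Difference between group means (log2, with SE) of every probe of PSMA4, PSMB4, PSMC6 and PSMD1 against the start of the probe in the transcript in bases, for low-RFI minus high-RFI and restricted minus high-RFI pigs, the points of a probe set slightly apart. The 10 PSMB4 and 7 PSMC6 probes lie close together, whereas the PSMA4 probe at base 1212 stands at 0.53 and the others near 0, and the PSMD1 probes lie on either side of 0.

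Between low-RFI and high-RFI pigs the 16 genes outside the immunoproteasome stood nearer 0. On their brightest probes 12 were higher and 4 lower in the low line, with a median of 0.09 against 0.02 over all kept probes. In the brightest group of all probes 63.5% were higher in the low line, with a median of 0.05. Of the 45 member probes there 29 were higher, about the same share, with a median of 0.10. Under normexp with its usual fit the direction turned, with 3 of 16 higher and a median of -0.10. With the fit on negative control spots it did not, with 12 of 16 higher and a median of 0.08. At an unadjusted p under 0.05, 6 of 56 probes were higher, against 7.20% of all probes, and 14.4% of the brightest group. Lower at that level were 0 of 56, against 3.91% of all probes. The 6 probes were the 3 of PSMB6, the 2 of PSME1 and 1 of PSMA6, at base 872, whose p lies at the limit and rounds to 0.05. Without the arrays of the dimmest slide 3 probes were higher at that level, and under either normexp fit 0 were (limma).

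PSMB6, the core subunit with caspase-like activity, had levels from 5.55 to 5.77 with a median of 5.65 in high-RFI pigs, from 5.56 to 6.37 with a median of 5.85 in low-RFI pigs and from 5.54 to 5.83 with a median of 5.74 in restricted pigs. The high values came from part of the low line: 4 of its 7 pigs lay above every high-RFI pig, and the rest lay among them. The difference was 0.24 (SE 0.09, limma adjusted p 0.326) on the brightest probe, at base 762, and 0.24 and 0.26 on the probes at bases 385 and 576. Low-RFI pigs were higher on 5 of 6 slides, and the difference was 0.23 on the first and 0.26 on the second scan day. Restricted pigs stood between the lines, at 0.05 (SE 0.09, limma adjusted p 0.922) above high-RFI pigs. The PSMB6 probes at bases 385 and 576 share no run of 15 or more bases, so they measured the transcript at separate places:
PSMB6 base 385: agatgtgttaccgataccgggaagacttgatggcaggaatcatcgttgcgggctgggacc
PSMB6 base 576: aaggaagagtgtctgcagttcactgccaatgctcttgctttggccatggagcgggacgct

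PSME1, the alpha chain of the activator cap, had the smallest p of the members between low-RFI and high-RFI pigs. Its level ran from 2.45 to 3.22 in high-RFI pigs (median 2.94), from 2.94 to 3.40 in low-RFI pigs (median 3.24) and from 2.81 to 3.33 in restricted pigs (median 3.1). The groups overlapped, and 2 high-RFI pigs lay below all others. The difference between the lines was 0.31 (SE 0.10, limma adjusted p 0.254), with low-RFI pigs higher on 6 of 6 slides, and it was 0.23 (SE 0.11, limma adjusted p 0.425) on the probe at base 507. PSME2, the beta chain of the same cap, ran from 3.03 to 3.54 in high-RFI pigs (median 3.35), from 3.27 to 3.67 in low-RFI pigs (median 3.47) and from 3.21 to 3.67 in restricted pigs (median 3.43). Its ranges overlapped more, and its difference between the lines was 0.17 (SE 0.09, limma adjusted p 0.504), again with low-RFI pigs higher on 6 of 6 slides. This PSME2 difference was 0.23 on the first and 0.10 on the second scan day. Between restricted and high-RFI pigs PSME1 differed by 0.19 (SE 0.10, limma adjusted p 0.559) and PSME2 by 0.09 (SE 0.09, limma adjusted p 0.796). The PSME2 value was 0.053 without high-RFI replicate 1 and 0.057 without restricted replicate 4. Under the normexp correction these last differences turned to -0.50 and -0.67. Between low-RFI and restricted pigs they were 0.12 (SE 0.10, limma adjusted p 0.756) and 0.07 (SE 0.09, limma adjusted p 0.849), the latter from 0.041 without low-RFI replicate 5 to 0.11 without restricted replicate 4. PSME3, the nuclear activator, stood on the other side, at -0.11 (SE 0.09, limma adjusted p 0.691) between the lines. Its level ran from 1.33 to 1.63 in high-RFI pigs (median 1.5), from 1.21 to 1.51 in low-RFI pigs (median 1.37) and from 1.23 to 1.82 in restricted pigs (median 1.56). All 3 ranges overlapped, and the low line stood below restricted pigs, at -0.17 (SE 0.09, limma adjusted p 0.50). The PSME1 probe at base 507 is shown because it gave the second reading of that difference:
PSME1 base 507: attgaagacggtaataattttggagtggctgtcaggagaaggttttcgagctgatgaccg

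The chains of the cap varied together from pig to pig. Over the 23 pigs, deviations from the group means of PSME1 and PSME2 had a Pearson r of 0.77 (permutation p 2e-05, adjusted p 0.00012 over 6 pairs of subunits) and a Spearman rho of 0.79 (permutation p 3e-05, adjusted p 0.00018). Without the 2 pigs farthest from the median of PSME1, both high-RFI, r was 0.71. It was 0.58 over the 12 pigs of the first scan day and 0.91 over the 11 of the second, and 0.71 with slide means removed too (adjusted p 0.00096). Both genes of a pig were read on the same array, and the part of error common to an array in r was not tested. Of the other 5 pairs, 0 had an adjusted p under 0.05. PSMB6 and PSMB9, which exchange with each other, had r of -0.21 (permutation p 0.33, adjusted p 0.67) and rho of -0.43 (permutation p 0.041, adjusted p 0.12). PSMB8 and PSMB9, neighbours in the major histocompatibility region, had r of 0.24 (permutation p 0.28, adjusted p 0.67).

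**Figure D4:**
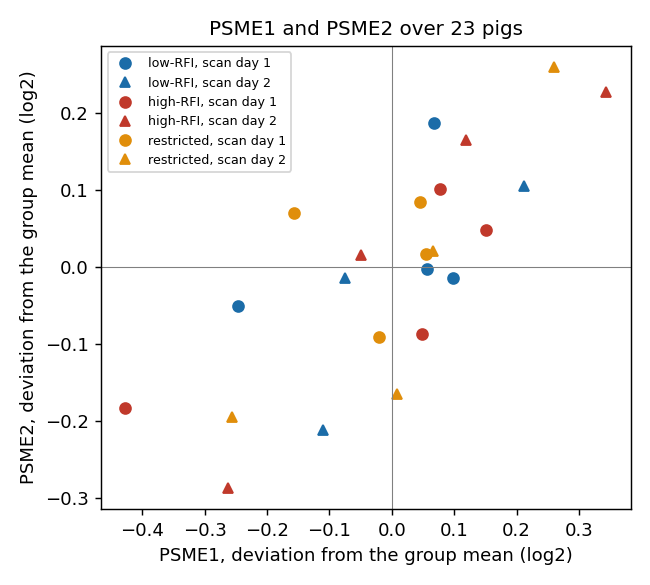
Deviation of PSME2 from its group mean against that of PSME1 (log2), 1 point for each of the 23 pigs, coloured by group, circles for the first and triangles for the second scan day. Pigs high in 1 gene tend to be high in the other, with r of 0.77.

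The immunoproteasome subunits ran against the core. All 3 genes, on all 8 of their probes, had lower means in restricted than in high-RFI pigs and in low-RFI than in high-RFI pigs. The 2 comparisons share the high-RFI pigs, so they are not separate observations. By slide, low-RFI pigs were lower than high-RFI pigs on 4 of 6 for PSMB9 and PSMB10 and on 3 of 6 for PSMB8. Restricted pigs were lower than high-RFI pigs on 5 of 6 slides for PSMB8 and PSMB10. PSMB10, the inducible partner of PSMB7, ran from 2.69 to 3.03 in high-RFI pigs (median 2.89), from 2.50 to 2.83 in restricted pigs (median 2.73) and from 2.64 to 2.90 in low-RFI pigs (median 2.73). Most high-RFI pigs lay above most of the others, with overlap. Its difference was -0.18 (SE 0.07, limma adjusted p 0.370) between restricted and high-RFI pigs and -0.13 (SE 0.07, limma adjusted p 0.536) between low-RFI and high-RFI pigs. PSMB9, the partner of PSMB6, ran from 1.33 to 1.82 in high-RFI pigs (median 1.49), from 0.92 to 1.96 in restricted pigs (median 1.19) and from 0.84 to 1.66 in low-RFI pigs (median 1.53). Of the restricted pigs 6 lay below every high-RFI pig, and 1 lay above them all. The difference between restricted and high-RFI pigs was -0.25 (SE 0.14, limma adjusted p 0.601), with restricted pigs lower on 6 of 6 slides. This PSMB9 difference was -0.38 on the first and -0.13 on the second scan day. PSMB8, the partner of PSMB5, was the most variable of the 3, from -1.20 to 0.61 in high-RFI pigs (median -0.41), from -1.48 to 0.52 in restricted pigs (median -0.77) and from -1.73 to 0.86 in low-RFI pigs (median -0.83). The ranges were wide in each group and overlapped over most of their length, and the differences were -0.37 (SE 0.35, limma adjusted p 0.807) between restricted and high-RFI pigs and -0.23 (SE 0.36, limma adjusted p 0.880) between low-RFI and high-RFI pigs. With 1 pig left out the latter ran from -0.48, without low-RFI replicate 3, to -0.045, without low-RFI replicate 1, and the former from -0.56, without restricted replicate 4, to -0.23, without high-RFI replicate 4. PSMB9 stood at -0.12 (SE 0.15, limma adjusted p 0.846) between low-RFI and high-RFI pigs, and at -0.021 without low-RFI replicate 7. Between low-RFI and restricted pigs PSMB8 stood at 0.14 (SE 0.36, limma adjusted p 0.939), PSMB9 at 0.14 (SE 0.15, limma adjusted p 0.821) and PSMB10 at 0.05 (SE 0.07, limma adjusted p 0.866). For PSMB8 the sign turned without low-RFI replicate 3, to -0.10, PSMB9 ran from 0.087 without restricted replicate 3 to 0.24 without restricted replicate 4, and PSMB10 was 0.025 without restricted replicate 5. The PSMB8 probes at bases 630 and 653 share the 37 bases in capitals and gave -0.48 and -0.37 between restricted and high-RFI pigs, and the PSMB9 probe at base 777 gave -0.23:
PSMB8 base 630: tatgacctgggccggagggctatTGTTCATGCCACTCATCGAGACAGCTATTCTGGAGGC
PSMB8 base 653: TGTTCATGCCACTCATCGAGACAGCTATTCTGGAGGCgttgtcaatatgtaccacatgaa
PSMB9 base 777: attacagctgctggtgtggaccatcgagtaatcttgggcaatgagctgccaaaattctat

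Because an inducible subunit takes the place of a constitutive one, their log ratio was also taken within each array, where a constant that scales the whole array cancels. This was added after the data were seen, as 9 comparisons of 3 pairs, each with a two-sided exact permutation test and p-values adjusted over the 9. The log ratio of PSMB10 to PSMB7 was -1.99 ± 0.17 in high-RFI pigs (SD, n = 8), -2.27 ± 0.26 in restricted pigs (SD, n = 8) and -2.21 ± 0.14 in low-RFI pigs (SD, n = 7). It was lower in restricted than in high-RFI pigs by a difference of -0.28 (exact permutation p 0.0263, adjusted p 0.118) and in low-RFI than in high-RFI pigs by -0.22 (exact permutation p 0.0224, adjusted p 0.118), which missed the threshold. With 1 pig left out the former ran from -0.35, without restricted replicate 8, to -0.23, without restricted replicate 5. The smallest adjusted p over these fits was 0.042 (exact permutation), without restricted replicate 8. For PSMB9 to PSMB6 the differences were -0.31 (exact permutation p 0.0797, adjusted p 0.179) and -0.35 (exact permutation p 0.0696, adjusted p 0.179). For PSMB8 to PSMB5 they were -0.56 (exact permutation p 0.139, adjusted p 0.25) and -0.41 (exact permutation p 0.328, adjusted p 0.492). Under the normexp correction the 3 differences between restricted and high-RFI pigs turned positive, at 0.01 for PSMB10, 0.27 for PSMB9 and 0.59 for PSMB8.

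Markers of immune cells stood on the same side as the immunoproteasome. Of 11 leukocyte markers kept of 13 on the array, 9 were lower in restricted than in high-RFI pigs, with a median of -0.24, and 10 were lower in low-RFI than in high-RFI pigs, with a median of -0.19. Their summed level, on a linear scale relative to the array's 75th percentile, ran from 9.13 to 15.5 in high-RFI, from 7.01 to 19.6 in restricted and from 7.29 to 12.6 in low-RFI pigs. Well above background on all arrays were 6 of the 11 markers. CD3D and CD3E were so on 20 of 23 arrays, and S100A8 on 14. Of the 11 markers 0 passed the threshold in either comparison (limma), and at an unadjusted p under 0.05 2 were lower in restricted and 1 in low-RFI than in high-RFI pigs, beside 4.81% and 3.91% of all probes. The 1 marker lower in low-RFI pigs was S100A8, at -1.19 (SE 0.52, limma adjusted p 0.392). Genes of interferon response and antigen processing stood near 0: of 10 kept, 7 were lower in restricted than in high-RFI pigs, with a median of -0.11, and 6 in low-RFI pigs, with a median of -0.02, and 0 passed the threshold or had an unadjusted p under 0.05 (limma). Fibroblast markers, 6 in number, had medians of -0.17 between restricted and high-RFI pigs and -0.13 between low-RFI and high-RFI pigs, and 6 endothelial markers had -0.16 and -0.11. For 8 adipocyte markers these were -0.06 and -0.63, and for 11 fibre markers 0.06 and 0.15. Of the 3 erythroid genes listed 0 were found on the array by symbol. The part of these markers in the result was not tested.

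The low line also lay below restricted pigs for most of the core and regulatory genes. Of the 16 genes outside the immunoproteasome 13 were lower in low-RFI than in restricted pigs on their brightest probes. The median was -0.09 against 0.02 over all kept probes, and the 3 that were higher were PSMB6, PSME1 and PSME2. Under normexp the direction turned: 14 of the 16 were higher with either fit, with medians of 0.56 and 0.40. At an unadjusted p under 0.05, 4 of the 19 genes were lower on their brightest probe. Counting probes, 9 of 56, or 16.1%, were lower, 5 of them of PSMB4, against 4.61% of all probes. The count rested on single pigs: with low-RFI replicate 2 left out 3 were lower, with restricted replicate 4 left out 4, with low-RFI replicate 5 left out 15 and with restricted replicate 7 left out 16. It was 4 with median centring, 14 with the deposited values and 15 with a trended and robust fit, and 1 under either normexp fit. Higher at that level were 0 of 56, against 5.57% of all probes. In the brightest group 7 of 45 member probes were lower at that level, beside 7.30% of all probes in it. PSMD10, an ankyrin repeat chaperone that helps to assemble the base, ran from -0.76 to -0.31 in low-RFI pigs (median -0.59), from -0.48 to -0.16 in restricted pigs (median -0.35) and from -0.68 to -0.13 in high-RFI pigs (median -0.34). The low line lay lowest with overlap, at -0.20 (SE 0.09, limma adjusted p 0.471) against restricted pigs and -0.16 (SE 0.09, limma adjusted p 0.529) against high-RFI pigs. PSMD10 was lower in low-RFI than in high-RFI pigs on 6 of 6 slides.

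A further 16 probes were tied to 6 more proteasome genes only through their RefSeq accession or gene ID, and they are not counted above. PSMG4, a chaperone in the assembly of the core's alpha ring, ran from 4.32 to 4.69 in high-RFI pigs (median 4.61), from 4.66 to 5.05 in low-RFI pigs (median 4.92) and from 4.49 to 4.99 in restricted pigs (median 4.70). The lines barely overlapped, and the difference between low-RFI and high-RFI pigs was 0.35 (SE 0.09, limma adjusted p 0.137), on 6 of 6 slides. With slide as a block it was 0.33 (limma adjusted p 0.0881). Its 2 probes have the same sequence and are not independent measurements. PSMD3, a lid subunit, was higher in restricted than in high-RFI pigs by 0.28 (SE 0.08, limma adjusted p 0.205). PSMA3, PSMB5 and PSMC5 stood at 0.17 (SE 0.07), 0.19 (SE 0.09) and 0.20 (SE 0.09) in that comparison, the same side as the 16 genes above. PSMB11, the thymus form of the catalytic subunit, was at -0.0035 (SE 0.19).

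Of 33 partners and regulators of the proteasome listed, 9 were on the array by symbol. All 9 had higher means in restricted than in high-RFI pigs, with a median of 0.16, beside 53.1% of all probes and 69.9% of the brightest group. Of the 9, 4 had an unadjusted p under 0.05, beside 4.95% of all probes and 10.1% of the brightest group. Among these, VCP, the ATPase that extracts ubiquitinated proteins, differed by 0.26 (SE 0.08, limma adjusted p 0.257), its cofactor UFD1 by 0.28 (SE 0.09, limma adjusted p 0.265) and ZFAND5, which stimulates the proteasome in wasting muscle, by 0.32 (SE 0.11, limma adjusted p 0.268). Of the 9, 0 passed the threshold in any of the 3 comparisons (limma). Of 11 muscle ubiquitin ligases and autophagy partners 5 were measured and 0 passed (limma). FBXO32, the muscle ligase atrogin, was higher in low-RFI than in high-RFI pigs by 0.59 (SE 0.27, limma adjusted p 0.416), and at an unadjusted p under 0.05 it was the only 1 of the 5 in that comparison, beside 7.20% of all probes higher at that level. Between low-RFI and restricted pigs 1 of the 5 was higher and 1 lower at that level, beside 5.57% and 4.61% of all probes. TRAF6, a ubiquitin ligase of receptor signalling, was at 0.92 (SE 0.30, limma adjusted p 0.275) between low-RFI and restricted pigs. Between restricted and high-RFI pigs TRAF6 was at -0.62 (SE 0.29, limma adjusted p 0.491). Its SD was 0.91 in restricted pigs, against 0.40 in high-RFI and 0.315 in low-RFI pigs. FOXO1, a transcription factor of the atrophy programme, was at -0.43 (SE 0.18, limma adjusted p 0.410) between low-RFI and restricted pigs. FOXO3, from the same list, went the other way, at 0.42 (SE 0.22, limma adjusted p 0.527). Between restricted and high-RFI pigs FOXO1 stood at 0.28 (SE 0.17, limma adjusted p 0.619) and FOXO3 at -0.36 (SE 0.21, limma adjusted p 0.613).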

How the data were processed

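Total RNA of Longissimus muscle was labelled with Cy3 and hybridised to Agilent arrays, 1 for each of 23 pigs, per the labels' protocols. The deposited processed intensity of a spot comes from Feature Extraction 10.7.3.1 with spatial and multiplicative detrending switched on, per the file headers. The mean spot intensity and local background, also per the file headers, were used for normexp only. The deposited log2 table (26410 spots of 26316 probes, column medians of 0) differs from the log2 of that signal by 1 constant per array, and served as an alternative. R 2.10.0 is listed in the submitters' processing notes.

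The log2 processed signal of 43803 non-control spots was set relative to the array's 75th percentile, spots marked as outliers were dropped, and spots of a probe were averaged. A probe was kept if some group had 6 or more arrays with it well above background (27785 of 43603). One limma 3.58.1 model (R 4.3.3) held all 3 groups, and the script was checked on simulated data first. Classes of subunits are described by counts and medians. Correlations used 100000 permutations. No column of the tables was left without a sample.

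Values were fixed to be given for members past the threshold, the 5 genes of smallest p in each comparison, the gene of smallest F test p in each class, PSMB8, PSMB9, PSMB10, PSME1 and PSME2. The other member genes and the 6 further genes are named to account for every proteasome gene. Lists of partners, ligases, interferon genes and cell type markers (muscle fibre, leukocyte, adipocyte, fibroblast, endothelial, erythroid) were used. The members, lists and tests were chosen with earlier results of these data known. Replicate numbers were checked for pairing: of 22 pairs of pigs with the same number 7 had a correlation of deviations over 0.1. The correlations ran from -0.30 to 0.33, with a median of 0.048. Pigs with unlike numbers were not compared, so the check cannot decide whether the numbers pair the pigs. The main fit treated the pigs as unpaired.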

Additional observations from a re-analysis of the deposited data

Results flagged for a closer look

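In 57 groups of 1 gene and 1 condition, 1 pig stood apart from the rest of its group, where chance alone flags about 1 group in 20. PSMD1 in high-RFI replicate 7, on slide 6, had a level of 6.02 on the brightest probe, and the next high-RFI pig had 5.61. The gap was 0.563 of the range of the 8 pigs, above the critical value of 0.526. Without that pig the difference between restricted and high-RFI pigs was 0.25 (SE 0.10, limma adjusted p 0.315) in place of 0.19.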

How the results depend on the processing

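Of the 56 member probes 0 passed the threshold under any of the settings tried, and also in the fits that left out 1 pig each, where the smallest limma adjusted p was 0.0947, for PSMA5 without high-RFI replicate 7. Member probes higher in restricted than in high-RFI pigs at an unadjusted p under 0.05 numbered 14 to 28 over those fits. Counts of all probes past the threshold, few throughout, moved by more than 1.5 times as follows. For low-RFI against high-RFI pigs they were 0 under both normexp fits, 20 with the deposited values, 22 without the filter, 18 with detection on all arrays required, 19 with slide as a block, 52 with a trended and robust fit and 18 without the dimmest slide. For restricted against high-RFI pigs the count was 0 with median centring, both normexp fits, no filter, the slide block, the replicate block, the trended fit and the dimmest slide left out. For low-RFI against restricted pigs it was 23 with median centring, 0 with normexp, 9 with normexp on negative controls, 21 with deposited values, 18 without the filter, 25 with the slide block, 20 with the replicate block, 76 with the trended fit and 15 without the dimmest slide. For the F test it was 0 under both normexp fits, 22 without the filter, 66 with detection on all arrays, 19 with the replicate block, 92 with the trended fit and 20 without the dimmest slide. The replicate block changed no call of a member, and with it the member probes with an unadjusted F test p under 0.05 were 7 in place of 18. Whether same-numbered pigs are paired was not settled.

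Class medians moved beyond their spread only under normexp, here with the fit on negative controls second where it moved too. Between restricted and high-RFI pigs the median was -0.65 and -0.32 over all genes, -0.66 and -0.31 outside the immunoproteasome, -0.32 and -0.26 for alpha, -0.74 and -0.41 for beta, -0.66 and -0.35 for base, -0.72 and -0.36 for lid, and -0.50 and -0.15 for activator genes. Between low-RFI and restricted pigs these were 0.47 and 0.36, 0.56 and 0.40, 0.26 and 0.32, 0.54 and 0.42, 0.57 and 0.42, 0.56 and 0.39, and 0.61 and 0.43. Between low-RFI and high-RFI pigs normexp gave -0.10 outside the immunoproteasome, -0.094 for alpha, -0.072 for beta, -0.11 for base, -0.17 for lid and -0.034 for activator genes. Single genes turned in sign likewise. Between restricted and high-RFI pigs PSMA4 was -0.32, PSMA5 -0.25 and -0.26, PSMA6 -0.69 and -0.39, PSME1 -0.50 and -0.15 and PSME2 -0.67 and -0.29. Between low-RFI and restricted pigs PSMA4 was 0.26 and 0.075, PSMA5 0.11 and 0.32 and PSME3 0.13 and 0.021, and PSME2 between the lines was -0.034. The cause was not tested.

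Within-array log ratios under normexp were 0.0075, 0.59 and -0.58 for PSMB8 to PSMB5 in the order low-RFI against high-RFI, restricted against high-RFI and low-RFI against restricted pigs, the last -0.32 on negative controls. For PSMB9 to PSMB6 restricted against high-RFI was 0.27 and 0.15, and for PSMB10 to PSMB7 it was 0.0090 under normexp, with low-RFI against restricted at -0.15 under both. Without the dimmest slide PSMB9 to PSMB6 was 0.14 between low-RFI and restricted pigs. With 1 pig left out that value ran from -0.12 to 0.064, PSMB8 to PSMB5 from -0.10 to 0.34, PSMB8 alone from -0.10 to 0.33, and PSMB10 to PSMB7 between restricted and high-RFI pigs from -0.35 to -0.23. The correlation of PSMB7 with PSMB10 was -0.079 with slide means removed and -0.053 with quantile normalization, that of PSMB5 with PSMB8 0.19 with slide means removed, and that of PSMC5 with PSMC6 -0.073 with quantile normalization. Of the 56 member probes 55 had a signal well above background on each of the 23 arrays. That count does not test the choice of background correction.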
